A study of Capra hircus with 24 samples.

Results

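Prolactin and growth hormone are pituitary hormones that act on the mammary gland through related cytokine receptors. Each hormone joins a pair of its receptors at the cell surface, the kinase JAK2 bound to them phosphorylates STAT5A and STAT5B, and these transcription factors enter the nucleus and switch on genes that include those of milk proteins. SOCS2 is induced by the same pathway and dampens growth hormone signalling, ELF5 is an epithelial transcription factor that works with STAT5 in forming the milk-secreting alveoli, and AKT1 is a kinase that carries survival and metabolic signals in the secreting cell. This account follows the 7 genes ELF5, PRLR, GHR, STAT5A, STAT5B, SOCS2 and AKT1 across 3 sources of goat RNA. They were chosen by 8 of the 26748 identifiers on the array, all cattle RefSeq transcripts, which took in 11 of its 43653 non-control probes. PRLR, the prolactin receptor, has 2 identifiers with 1 probe each, ELF5 has 2 probes and STAT5A has 3, so probes of a gene share a target and are not replicates. The gene names come from this selection, because the array files hold identifiers without symbols.

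RNA came from 8 healthy female goats in their 3rd lactation, 4 of the Polish White Improved (PWI) breed and 4 of the Polish Fawn Improved (PFI) breed. No goat received a treatment that the labels name. Each goat gave RNA from peripheral nuclear blood cells (PNCB), from the somatic cells found in its milk (MSC) and from its milk fat globules (MFG), which makes 24 arrays in 6 groups of 4. Fat globules are secreted lipid droplets wrapped in membrane, and some enclose cytoplasm of the secreting cell. On every array the sample was labelled with Cy5 and hybridised beside a Cy3-labelled pool of blood-cell RNA from 7 other goats of both breeds in their 4th lactation. A value below is a log2 ratio of sample over this pool, on a normalised scale in which 1 unit is a 2-fold difference, or a net signal, the median spot brightness minus its local background. In RNA from mixed cells, fewer cells of a type and less RNA per cell cannot be told apart.

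The share of probes well above background in Cy5, by the scanner software's own flag, was 51.2% to 60.9% on MSC arrays, 57.5% to 65.6% on PNCB arrays and 44.1% to 84.6% on MFG arrays. Some arrays stood apart. The slope of signal on spiked-in control RNA was 0.645 and 0.567 on the PNCB arrays of PWI goats 3 and 4 and 0.489 on the MFG array of PWI goat 2, against 0.758 to 0.887 elsewhere, and the MFG arrays of PWI goats 2 and 4 had the highest detected shares (84.6% and 75.3%). All 11 probes were among the 27411 that were tested. The 2 PRLR probes and 2 ELF5 probes passed only through groups of the milk sources, where they were higher than in blood. Of their 264 values, 8 came from spots with an outlier flag and are not used. Each of the 6 groups sat on its own slide, all MFG arrays were scanned on another day, and blood RNA was extracted with another kit. Slide therefore cannot be told apart from breed or source, nor scan day from MFG, nor kit from blood. The cell types in each source were not checked against marker genes, since 0 of the 26748 identifiers on the array matched the gene table used here.

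In MSC against PNCB, 6 of the 11 probes differed in limma's moderated test at a Benjamini-Hochberg adjusted p under 0.05, all of them higher in MSC, while 49.6% of all tested probes did, 22.5% higher and 27.1% lower. In MFG against PNCB, 8 differed, 7 higher and 1 lower, against 63.9% of all tested probes, 25.5% higher and 38.4% lower. In MFG against MSC, 4 differed and all were higher in MFG, against 34.8% of all tested probes and 12.6% higher. The median difference over the 11 probes was 0.30, 1.03 and 0.14 log2 units in these comparisons, and over all tested probes it was -0.04, -0.13 and -0.02. Of the probes higher against PNCB, 4 in each comparison are the ELF5 and PRLR probes, which were tested only through milk groups. Such a filter favours a difference from blood, so these counts and medians are a description. The first pair of comparisons shares the PNCB arrays. The scaling matters for MFG. When each array was centred on its median ratio in place of the loess curve, the median of all probes was -0.17, -0.82 and -0.61, and the calls split differently. The share of calls that were higher in MFG moved from 39.9% to 19.3% against PNCB and from 36.3% to 4.70% against MSC.

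**Figure D1:**
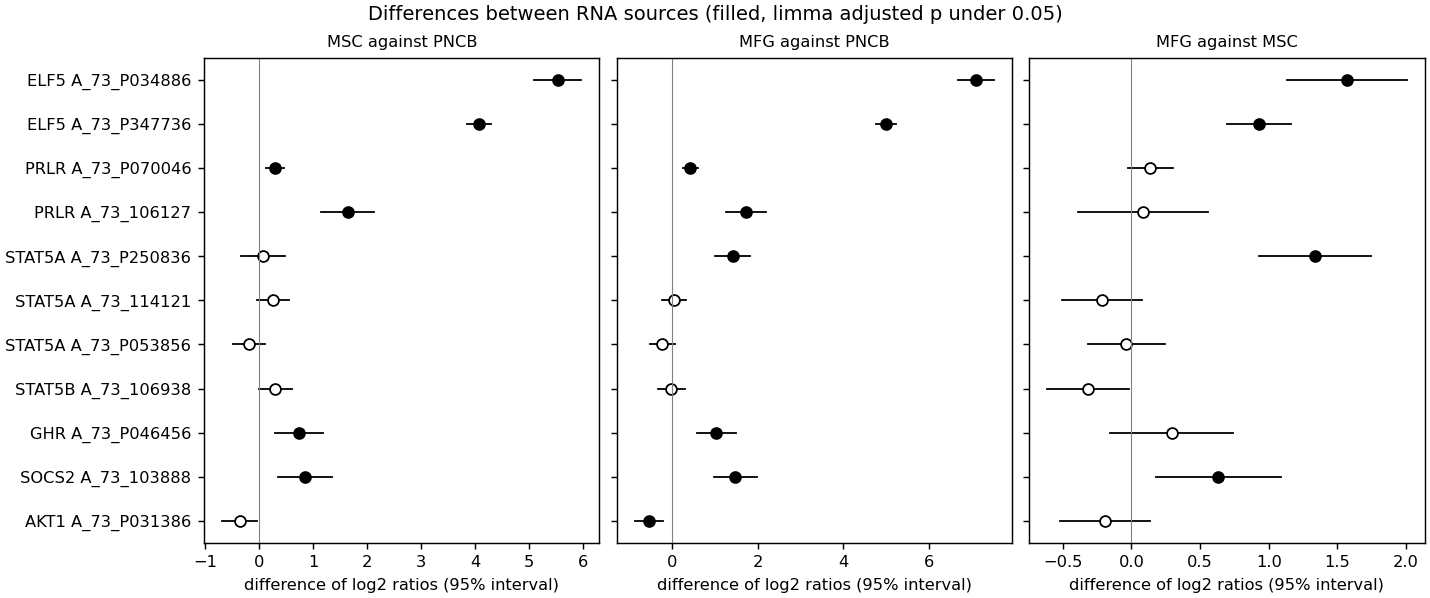
Difference in log2 ratio between RNA sources (x axis, log2 units) for each of the 11 probes (y axis), with limma's 95% confidence interval as a line; filled points passed an adjusted p of 0.05. Both ELF5 probes lie farthest to the right against PNCB, at 5.54 and 4.07 in MSC and 7.10 and 5.002 in MFG, and AKT1 is the lowest against PNCB in both panels. ELF5 and PRLR were not well above background in PNCB, so their points against PNCB are no measure of a fold.

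ELF5 RNA was bright in both milk sources, and on none of the 8 PNCB arrays was it well above background. At probe A_73_P034886, the brighter of its 2 probes (both under NM_001024569), the log2 ratio ran from 5.14 to 5.73 with a median of 5.39 on the 7 measured MSC arrays. On the 8 MFG arrays it ran from 6.0005 to 7.43 with a median of 7.10, and on the 8 PNCB arrays from -1.32 to 0.31 with a median of -0.04. The 3 sources did not overlap, with MFG highest, MSC next and PNCB lowest. The lowest PNCB value was that of PWI goat 3 and the lowest MFG value that of PWI goat 2, both on arrays with a low spike-in slope.

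Every goat showed the order of milk above blood at this probe, 7 of 7 for MSC and 8 of 8 for MFG. At A_73_P347736, too, all milk arrays lay above all PNCB arrays. Among all tested probes, the MSC arrays all lay above the PNCB arrays for 9.43% and the MFG arrays for 8.45%. Both ELF5 probes were tested because they are high in milk, so their place above blood is a description.

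Net Cy5 at A_73_P034886 was 13531.5 to 43062 on MSC arrays and 22762 to 35150.5 on MFG arrays, against 5 to 12 on PNCB arrays. At A_73_P347736 it was 6428.5 to 21706, 11656 to 19057 and 3 to 9.5. No milk array came near a blood array. Since the blood signal is only a bound, the milk signal was set against the higher of the probe's own PNCB value and the dimmest signal well above background on that array, after loess and between-array quantile scaling of the channels. By that rule ELF5 was at least 259-fold higher in MSC and at least 503-fold in MFG at the first probe (limma adjusted p of the ratio = 4.98e-15 and 1.23e-17). At the second probe it was at least 125-fold higher in MSC and at least 258-fold in MFG (limma adjusted p of the ratio = 5.15e-18 and 5.37e-20). These folds come from 1 channel with no dye swap and are open to dye bias.

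The reference channel moved with the sample at ELF5. Cy3 carried the same pooled blood RNA on every array, yet net Cy3 at A_73_P034886 was 116 to 281.5 on MSC arrays and 140 to 358 on MFG arrays. On PNCB arrays it was 34 to 43, apart from 181 on the low-slope array of PWI goat 3. At A_73_P347736 it was 140 to 399.5 in MSC, 345 to 556 in MFG and 36 to 43.5 in PNCB, apart from 115.5 on that same array. At both ELF5 probes the software called Cy3 well above background on each of the 16 milk arrays and on none of PNCB, a pattern shared by 32 of the 43653 probes.

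Normalised alone, Cy3 was higher in MSC than in PNCB by 1.81 log2 units at the first ELF5 probe and by 2.27 at the second (limma adjusted p = 1.07e-06 and 2.07e-09), where 2.23% of all tested probes differed in Cy3. For MFG against PNCB the Cy3 differences were 1.18 and 2.22 (limma adjusted p = 1.07e-05 and 2.04e-10), where 38.1% differed. Net Cy3 was 0.60% to 0.98% of net Cy5 at the first probe on MSC arrays and 1.84% to 2.47% at the second. On MFG arrays the shares were 0.53% to 1.57% and 2.66% to 4.08%. A higher Cy3 signal lowers the ratio, and what moved Cy3 was not tested.

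**Figure D2:**
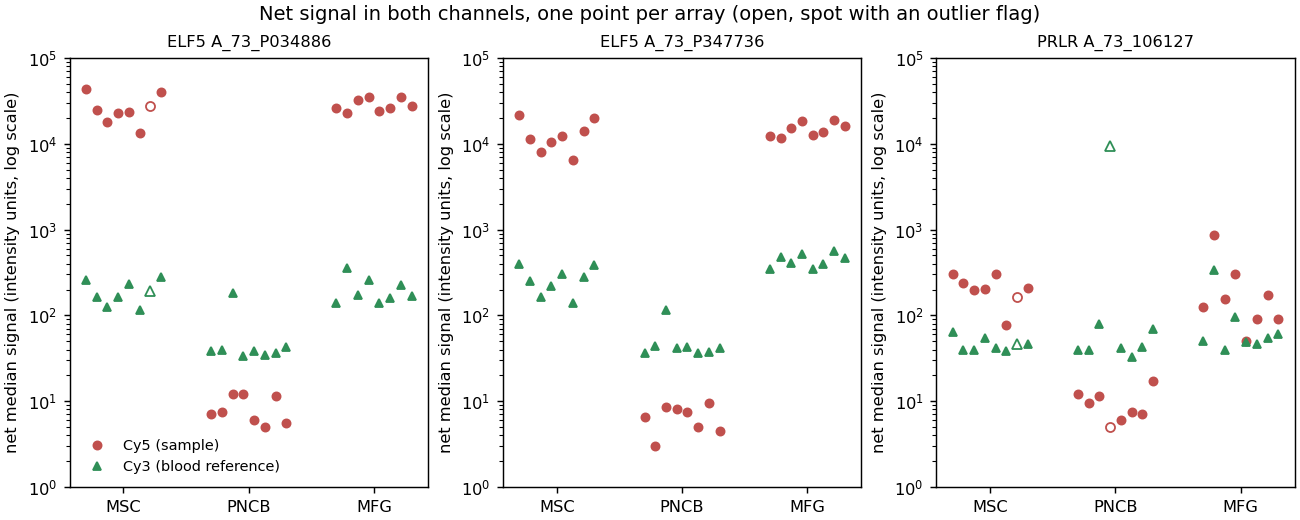
Net signal in Cy5 (red, sample) and Cy3 (green, blood pool), in intensity units on a log axis, for the 2 ELF5 probes and the brighter PRLR probe; each point is 1 array and open points carry an outlier flag. ELF5 Cy5 signals are at least 6428.5 on every milk array and at most 12 on every PNCB array. ELF5 Cy3 signals are also higher on the milk arrays, apart from 1 PNCB array of a PWI goat at A_73_P034886 (181). At A_73_P347736 that array (115.5) lies below every milk array.

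Between the milk sources, ELF5 was higher in MFG than in MSC at both probes. The log2 difference was 1.57 at A_73_P034886 (2.97-fold, SE 0.21, limma adjusted p = 5.13e-06) and 0.93 at A_73_P347736 (1.90-fold, SE 0.11, limma adjusted p = 9.58e-07). Neither probe overlapped between the sources, which held for 1.14% of all tested probes, and MFG was higher in 7 of 7 and 8 of 8 goats. This order depends on the scaling. With median centring the differences were 0.27 (limma adjusted p = 0.396) and -0.31 (limma adjusted p = 0.103), both above the median of all probes (-0.61), and with Cy5 alone 0.38 (limma adjusted p = 0.108) and 0.81 (limma adjusted p = 0.0017).

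PRLR, the receptor for prolactin, was well above background at its brighter probe on all 8 MSC and all 8 MFG arrays and on none of PNCB. That probe, A_73_106127 (NM_174155), had log2 ratios of 0.72 to 2.13 with a median of 1.56 on 7 MSC arrays. On 8 MFG arrays they were 0.59 to 2.31 with a median of 1.65, and on 7 PNCB arrays -0.76 to 0.07 with a median of -0.05. Every milk array lay above every PNCB array, which held for 9.43% of all tested probes in MSC and 8.45% in MFG. The lowest milk values were those of MFG PWI goat 2 (0.59) and MSC PFI goat 2 (0.72), and the lowest blood value was that of PFI goat 4.

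By the rule used for ELF5, over the 7 PNCB arrays without a flag at this probe, the PRLR Cy5 signal was at least 4.002-fold higher in MSC and at least 3.896-fold higher in MFG (limma adjusted p of the ratio = 7.37e-06 and 1.31e-06). This probe, too, was tested because it is high in milk. MSC and MFG did not differ by the test, with a difference of 0.08 and a 95% interval of -0.39 to 0.56. With median centring the difference was -0.54 and passed (limma adjusted p = 0.0268), above the median of all probes under that centring (-0.61). The Cy3 signal at this probe gave no such difference (0.01 and 0.16 log2 units for MSC and MFG against PNCB, limma adjusted p = 0.978 and 0.425).

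The other PRLR probe, A_73_P070046 (NM_001039726), lay close to background. It was well above background on 5 MSC arrays, 4 MFG arrays and no PNCB array, with net Cy5 of 9 to 20.5 in MSC, 7 to 294 in MFG and -3 to 9 in PNCB. The 294 was read on the low-slope MFG array of PWI goat 2, and the next highest MFG value was 48. By the same rule its Cy5 signal was 1.29-fold higher in MSC and 1.25-fold in MFG (limma adjusted p of the ratio = 0.00531 and 8.69e-05). These milk means include arrays on which the probe was not well above background, so the folds are no lower bound. The probe was tested only because it was well above background on all MSC arrays of PWI goats. Its place above blood is therefore a description. The MSC call was lost within PFI goats (limma adjusted p = 0.221) and when flagged spots stayed in the background fit or throughout (limma adjusted p = 0.0572 and 0.0739).

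GHR, the growth hormone receptor, was well above background in Cy5 on all 24 arrays but dim, with net Cy5 of 39 to 87.5 in MSC, 19 to 61 in PNCB and 19.5 to 355 in MFG. The 355 was read on the low-slope MFG array of PWI goat 2, and the next highest MFG value was 110. At the GHR probe A_73_P046456 (NM_176608) the log2 ratio was 0.06 to 0.66 in MSC with a median of 0.39, and 0.21 to 1.16 in MFG with a median of 0.65. In PNCB it was -1.95 to 0.06 with a median of -0.21. All MSC and MFG arrays lay above all PNCB arrays, which held for 9.43% and 8.45% of all tested probes. The margin was small, since the highest PNCB value and the lowest MSC value both round to 0.06. The PNCB value of -1.95 was that of PWI goat 4, a low-slope array on which net Cy3 at this probe was 226, while the PNCB median was 51.75.

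The GHR difference was 0.74 log2 units in MSC against PNCB (1.67-fold, SE 0.22, limma adjusted p = 0.00702). In MFG against PNCB it was 1.03 (2.04-fold, SE 0.22, limma adjusted p = 2.56e-04). Cy3 at the GHR probe was well above background on 0 MSC, 0 PNCB and 8 MFG arrays. The ratios in MSC and PNCB therefore rest on a reference signal near background, which limits these folds. With Cy5 alone the differences from PNCB were 0.57 in MSC and 0.92 in MFG (limma adjusted p = 0.00168 and 5.18e-06). Without the 3 low-slope arrays the differences were 0.52 and 0.90 (limma adjusted p = 0.00144 and 3.97e-06). Within PWI goats alone the MSC difference was 0.87 and did not pass (limma adjusted p = 0.107). MFG and MSC differed by 0.29, with a 95% interval of -0.16 to 0.74, which did not pass. The difference passed at 0.38 without the low-slope arrays, 0.51 with array weights and 0.35 with Cy5 alone (limma adjusted p = 0.00972, 0.00103 and 0.0418).

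**Figure D3:**
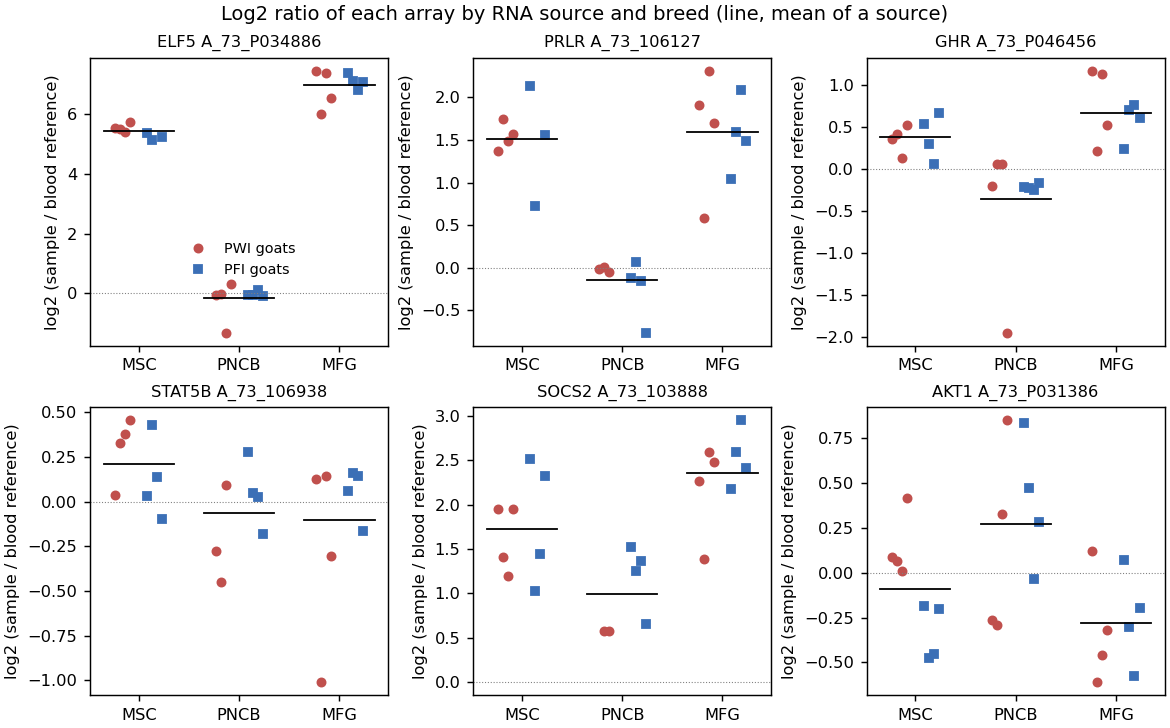
Log2 ratio of sample over blood pool (y axis) on each array for 6 genes, by RNA source (x axis) and breed (red circles PWI, blue squares PFI); lines are source means and flagged spots are left out. All milk arrays lie above all PNCB arrays for ELF5, PRLR and, by a small margin, GHR. Among all tested probes this held for 9.43% in MSC and 8.45% in MFG, and ELF5 and PRLR were tested only through milk groups. SOCS2 overlaps between sources, and 1 PNCB array of a PWI goat stands at -1.95 for GHR.

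STAT5A, which carries the prolactin signal to milk protein genes, gave different answers at its 3 probes, all under NM_001012673. The brightest, A_73_P250836, was well above background on all 24 arrays and had log2 ratios of -0.08 to 0.55 in MSC with a median of 0.36. In PNCB they were -0.27 to 0.78 with a median of 0.23, and in MFG 0.52 to 2.38 with a median of 1.83. MSC and PNCB overlapped throughout. MFG was higher in 8 of 8 goats in either comparison, although the lowest MFG array, that of PWI goat 2, fell inside the range of the other sources.

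At A_73_P250836, STAT5A was higher in MFG than in PNCB by 1.41 log2 units (2.65-fold, SE 0.20, limma adjusted p = 1.77e-06) and higher than in MSC by 1.34 (2.53-fold, SE 0.20, limma adjusted p = 1.34e-05). MSC and PNCB differed by 0.07, with a 95% interval of -0.34 to 0.48. Cy3 at this probe was also higher in MFG than in PNCB, by 0.34 (limma adjusted p = 0.0031). It was well above background on 2 MSC, 2 PNCB and 8 MFG arrays, so most ratios in MSC and PNCB rest on a reference signal near background. From the authors' deposited table of log ratios the MFG against MSC difference was 1.12 and did not pass (limma adjusted p = 0.0507), nor did it within PWI goats, at 1.01 (limma adjusted p = 0.0511), or from the software's processed signals, at 0.97 (limma adjusted p = 0.0771).

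The other STAT5A probes did not follow in MFG. At A_73_114121, well above background on 23 arrays, the MFG against PNCB difference was 0.04 (95% interval -0.24 to 0.32) and the MFG against MSC difference -0.22 (-0.51 to 0.08). At A_73_P053856, well above background on 8 PNCB, 5 MSC and 2 MFG arrays, they were -0.23 (-0.52 to 0.06) and -0.04 (-0.32 to 0.24). None of these passed the test. The 2 MFG arrays were those of PWI goats 2 and 4, which had the highest detected shares. On the other MFG arrays net Cy5 at A_73_P053856 was 6.5 to 20.5, so its MFG differences are no measure of a fold. In MSC against PNCB the probes stood at 0.25 and -0.19, also without passing. These values depend on the processing. With the authors' deposited table of log ratios, A_73_114121 passed in MSC against PNCB at 1.20 and in MFG against MSC at -1.46 (limma adjusted p = 0.005 and 0.00169), and A_73_P053856 passed in MSC and in MFG against PNCB at -0.70 and -1.05 (limma adjusted p = 0.0445 and 0.00292). The software's processed signals gave 1.001, -1.39, -0.67 and -1.17 in the same order (limma adjusted p = 0.0107, 0.00122, 0.0459 and 8.31e-04). With median centring A_73_114121 was lower in MFG than in MSC (-0.63, limma adjusted p = 0.00231) and than in PNCB (-0.46, limma adjusted p = 0.012). The medians of all probes under that centring were -0.61 and -0.82, so the first difference lay close to its median and the second above it. With array weights (0.19, limma adjusted p = 0.0382) or without the MFG arrays of PWI goats 2 and 4 (0.23, limma adjusted p = 0.0448) A_73_114121 was higher in MFG than in PNCB. In MSC against PNCB it also passed with array weights, without those MFG arrays and without PWI goat 2 (0.22, 0.25 and 0.30, limma adjusted p = 0.0363, 0.0254 and 0.0224). A_73_P053856 was lower in MFG than in PNCB without PWI goat 2 and with Cy5 alone (-0.34 and -0.18, limma adjusted p = 0.0391 and 0.0488). The intervals of both probes in MFG lie below that of A_73_P250836, and the identifier that all 3 share does not say which part of the transcript each probe reads. Averaged over its probes, STAT5A was higher by 0.39 in MFG than in PNCB (limma adjusted p = 0.00542), a value that rests on 1 probe.

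**Figure D4:**
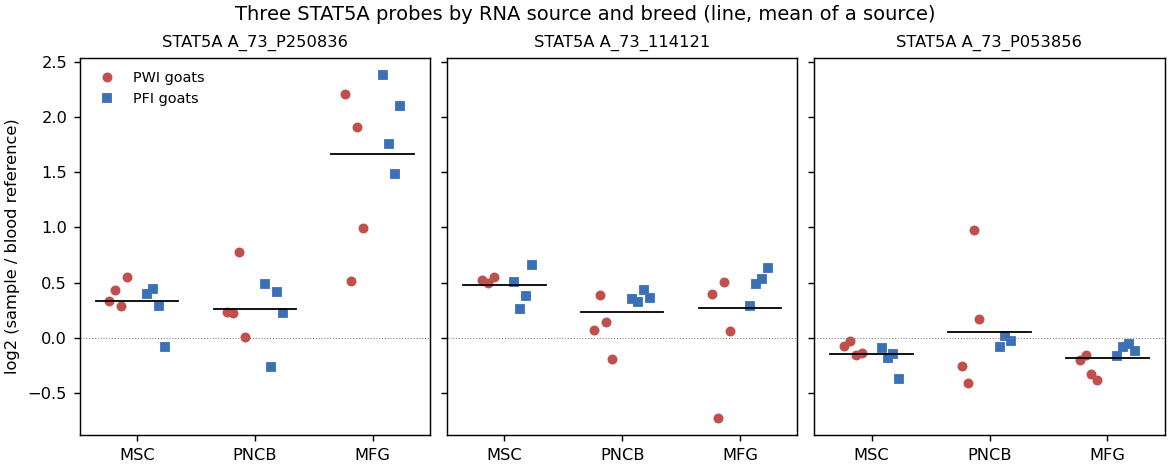
Log2 ratio of sample over blood pool (y axis) on each array for the 3 STAT5A probes, by RNA source and breed (red circles PWI, blue squares PFI), with lines at source means. The MFG mean is 1.67 at A_73_P250836, 0.27 at A_73_114121 and -0.19 at A_73_P053856.

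STAT5B, the close relative of STAT5A that is best known as the main carrier of the growth hormone signal, passed the test in none of the source comparisons. Its probe A_73_106938 (NM_174617) was well above background on all 24 arrays, with net Cy5 of 589.5 to 1726 in MSC, 1487 to 2515 in PNCB and 494 to 904 in MFG. Log2 ratios were -0.10 to 0.46 in MSC, -0.45 to 0.28 on 7 PNCB arrays and -1.01 to 0.16 in MFG, and the 3 sources overlapped. The value of -1.01 was again that of MFG PWI goat 2. The differences were 0.30 for MSC against PNCB (95% interval -0.01 to 0.60, limma adjusted p = 0.105), -0.02 for MFG against PNCB (-0.33 to 0.29, limma adjusted p = 0.905) and -0.32 for MFG against MSC (-0.61 to -0.02, limma adjusted p = 0.091). Without PWI goat 1 the last of these passed (-0.43, limma adjusted p = 0.0416). The MSC against PNCB difference passed without the 3 low-slope arrays, with array weights and without the MFG arrays of PWI goats 2 and 4 (0.37, 0.38 and 0.30, limma adjusted p = 0.00737, 0.0033 and 0.0264). With median centring STAT5B was lower in MFG than in PNCB by a difference of -1.85 and than in MSC by -1.61 (limma adjusted p = 1.1e-08 and 1.35e-07), both below the median of all probes (-0.82 and -0.61).

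SOCS2, the feedback inhibitor, was higher in both milk sources than in blood, and its values overlapped between sources. At A_73_103888 (NM_177523) the log2 ratio was 1.03 to 2.51 in MSC with a median of 1.70, and 1.38 to 2.95 in MFG with a median of 2.45. In PNCB it was 0.57 to 1.52 with a median of 0.95 on the 6 arrays left after the flags, which had removed PWI goats 1 and 4. The PNCB samples were all above 0. Their net Cy5 was 1223 to 2792, against 863 to 2584 in MSC and 824 to 2230 in MFG.

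The SOCS2 difference was 0.84 log2 units in MSC against PNCB (1.79-fold, SE 0.24, limma adjusted p = 0.00676), with MSC higher in 5 of the 6 goats measured in both. In MFG against PNCB it was 1.48 (2.78-fold, SE 0.24, limma adjusted p = 2.15e-05), with MFG higher in 6 of 6. MFG exceeded MSC by 0.63 (1.55-fold, SE 0.22, limma adjusted p = 0.0285) in 6 of 8 goats. Within PFI goats alone the MSC against PNCB difference was 0.63 and did not pass (limma adjusted p = 0.125). The MFG against MSC call was lost in 10 of 25 alternatives. It did not pass within PWI or within PFI goats (0.56 and 0.71, limma adjusted p = 0.262 and 0.0938), nor when PWI goat 3, PFI goat 2 or PFI goat 3 was left out (0.49, 0.49 and 0.50, limma adjusted p = 0.136, 0.127 and 0.139). The other 5 were flagged spots kept in the background fit or throughout, offset 16, the software's signals and the deposited ratios (0.50 to 0.79, limma adjusted p = 0.147, 0.489, 0.0606, 0.0603 and 0.0962). With median centring SOCS2 stood at 0.35 in MSC against PNCB (limma adjusted p = 0.269), -0.31 in MFG against PNCB (limma adjusted p = 0.305) and -0.66 in MFG against MSC (limma adjusted p = 0.0225), so its direction in MFG depends on the scaling. Against the median of all probes under that centring (-0.82 and -0.61), SOCS2 stood above it in MFG against PNCB and below it in MFG against MSC.

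AKT1, the survival kinase, was the only gene of the 7 that was lower in a milk source by the test. At A_73_P031386 (NM_173986) the log2 ratio was -0.47 to 0.42 in MSC with a median of -0.09, -0.61 to 0.12 in MFG with a median of -0.31, and -0.29 to 0.85 in PNCB with a median of 0.30. The sources overlapped. Net Cy5, which is not normalised, was 662.5 to 938.5 in PNCB, 238.5 to 379.5 in MSC and 175 to 613 in MFG. The 613 was read on the low-slope MFG array of PWI goat 2, and the next highest MFG value was 278.5. Normalised alone, log2 Cy5 overlapped between the sources, at 8.40 to 9.61 in PNCB, 8.20 to 8.74 in MSC and 8.72 to 9.45 in MFG.

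The AKT1 ratio was lower in MFG than in PNCB by a difference of -0.55 (SE 0.16, limma adjusted p = 0.00416), in 7 of 8 goats, and within PWI goats alone it was -0.47 and did not pass (limma adjusted p = 0.146). In MSC against PNCB it was -0.36 (SE 0.16) and did not pass (limma adjusted p = 0.0614). The breeds gave -0.72 within PFI goats (limma adjusted p = 0.0073) and -0.01 within PWI goats (limma adjusted p = 0.98). The MSC difference also passed when each goat was a fixed block (limma adjusted p = 0.0337), without PWI goat 1 or 2 (-0.42 and -0.43, limma adjusted p = 0.0399 and 0.0385), with Cy5 alone (-0.39, limma adjusted p = 0.0385) and with median centring (-0.92, limma adjusted p = 1.92e-06). With median centring the MFG differences were -2.19 against PNCB and -1.27 against MSC (limma adjusted p = 5.81e-13 and 1.68e-08). Cy3 at AKT1 was 387.5 to 599 on MFG arrays against 178.5 to 236 on PNCB arrays, a normalised difference of 0.55 (limma adjusted p = 1.15e-05). With Cy5 alone the MFG against PNCB difference was 0.13 (limma adjusted p = 0.468), which turns the direction, and in MFG against MSC it was 0.52 (limma adjusted p = 0.0079). Without the 3 low-slope arrays the ratio difference was -0.29 (limma adjusted p = 0.0753).

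Whether the breeds differ is the question in the series title, and each source sets 4 PWI goats against 4 PFI goats. None of the 11 probes passed in limma in MSC, in PNCB, in MFG, over the 3 sources with 1 mean for each goat measured in all of them, or in the test of breed by source. Few probes of the whole array did. In MSC 0 of 27410 passed (0%), in PNCB 3 (0.0109%), in MFG 4 (0.0146%), over the 3 sources 1 (0.00366%) and in the test of breed by source 3 (0.011%). At an unadjusted p under 0.05 the array gave 1200, 975, 2350, 1703 and 1675 probes, and the 11 probes gave 2, 1, 0, 1 and 0.

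The values under 0.05 before adjustment were those of 3 genes. AKT1 in MSC was 0.01 to 0.42 in PWI goats and -0.47 to -0.19 in PFI goats, a difference of 0.47 (SE 0.12, limma adjusted p = 0.988). With Cy5 alone the difference was -0.04. Net Cy3, from the same blood pool, was 146.5 to 184.5 on the PWI arrays and 198 to 229 on the PFI arrays. The part of Cy3 in the AKT1 difference was not tested. ELF5 at A_73_P034886 in MSC was 5.39 to 5.73 in 4 PWI goats and 5.14 to 5.36 in 3 PFI goats, a difference of 0.29 (SE 0.12, limma adjusted p = 0.988), and the other ELF5 probe gave 0.15 with overlap. SOCS2 in PNCB was 0.57 in both measured PWI goats and 0.65 to 1.52 in 4 PFI goats, a difference of -0.63 (SE 0.26, limma adjusted p = 0.972). Over the 3 sources SOCS2 stood at -0.57 (SE 0.16, limma adjusted p = 0.698), from the 2 PWI goats measured in all 3 sources against 4 PFI goats. With goat as a random block over all arrays it was -0.39 (limma adjusted p = 0.771), and with array weights it was -0.24, neither of which passed.

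The 95% intervals show what 4 goats a breed could resolve. In MSC all 11 intervals lay within a 2-fold difference either way. In PNCB 9 did, the others being those of GHR (-1.16 to 0.58) and SOCS2 (-1.23 to -0.03). In MFG 9 did, the others being those of 2 STAT5A probes, A_73_P250836 (-1.38 to 0.34) and A_73_114121 (-1.002 to 0.15). A missed threshold does not show that the breeds are alike. Breed took at most 13.8% of the variation at any of the 11 probes, at the STAT5A probe A_73_114121. The interaction of breed with source took at most 14.4%, at AKT1. Both are shares of all variation, that between the sources included.

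**Figure D5:**
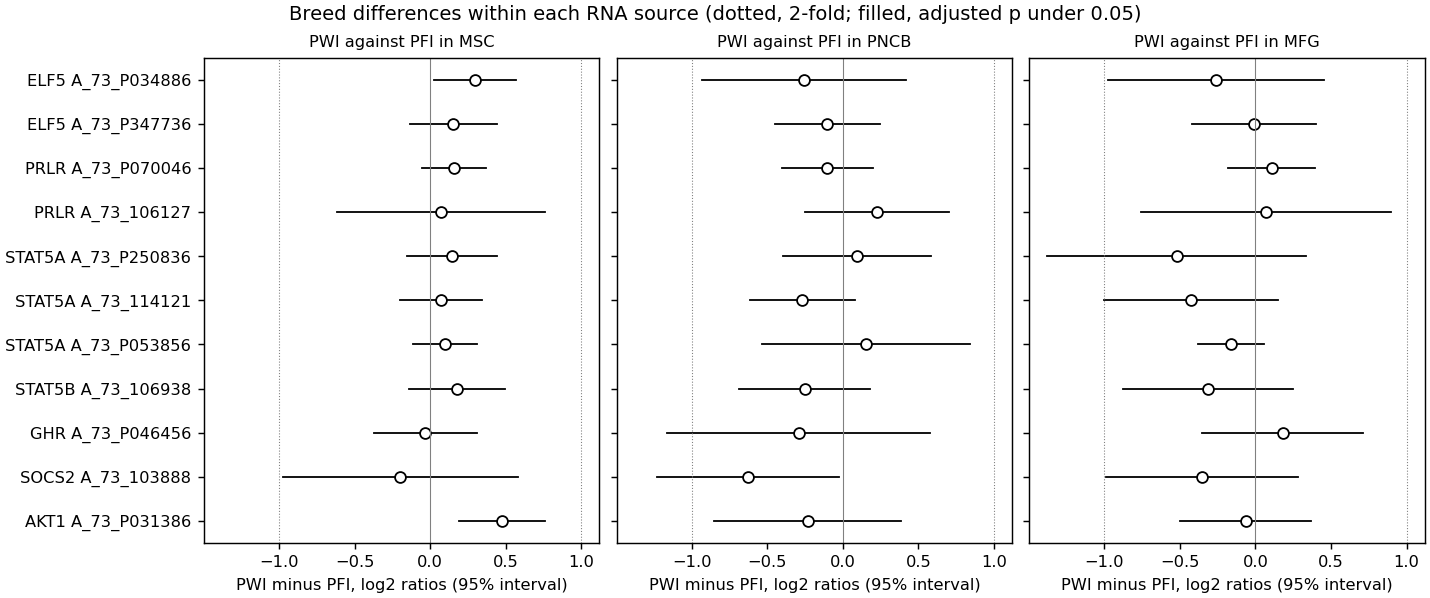
PWI minus PFI difference in log2 ratio (x axis, log2 units) within each RNA source for the 11 probes (y axis), with limma's 95% confidence interval; dotted lines mark a 2-fold difference. No point is filled, since none passed an adjusted p of 0.05, and the widest intervals are those of GHR in PNCB and STAT5A A_73_P250836 in MFG.

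Across all arrays, the probes whose ratios followed ELF5 A_73_P034886 most closely were those of TC410991 (Pearson r = 0.99 over 22 arrays) and NM_001102324 (r = 0.99 over 23 arrays), the best of 16500 identifiers by their brightest probes. For the other genes the closest identifier reached r between 0.87 and 0.97. These correlations follow largely from the differences between the sources, and arrays of a group share a slide. Among the 11 probes, the 2 ELF5 probes correlated at 0.996 over all arrays, 0.69 within MSC and 0.84 within MFG. ELF5 A_73_P034886 and PRLR A_73_106127 correlated at 0.89 over all arrays, but at 0.40 within MSC and 0.54 within MFG.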

How the data were processed

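The 11 probes and the settings were chosen with earlier results of these data known. Per the file headers, the scanner files hold median spot and background intensity in both channels and 0 or 1 flags per spot, made with Agilent Feature Extraction 10.7.3.1 (the version also in the submitters' processing notes), with no normalization of the medians. The log10 values in the authors' deposited table are Cy5 over Cy3 and equal the software's own ratios (largest difference 0). The array was designed on cattle sequence and hybridised with goat RNA, and a probe whose target differs in goat can read low.

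With R 4.3.3 and limma 3.58.1, outlier-flagged spots were removed first, background was corrected by normexp (offset 50), and ratios were normalised by loess within each array. No spot reached saturation. The test took the 27411 probes that the software called well above background in Cy5 on each of the 4 arrays of 1 or more of the 6 groups. Sources were compared in 1 limma fit of 24 arrays with 6 group means, each contrast weighting the breeds equally. Breeds were compared on 8 arrays a source, on 1 mean for each goat measured in all 3 sources (a goat with a flagged spot drops out for that probe), and by an F-test of breed by source. Adjusted p-values are Benjamini-Hochberg values over all tested probes. The number of arrays limits the precision. Each gene is described by its brightest tested probe, the others beside it. Gene names follow the selection of identifiers. The lists of pathway genes and cell type markers were not run, because 0 of 26748 identifiers matched the goat gene table used here, and no probe sequence was used. The method was tested on simulated data.

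Goats carry the same number in the 3 sources and the design names the same 4 goats a breed, so goat pairs the arrays, although goat number is also the position on the slide. Deviations from group means correlated between arrays of the same goat at -0.26 to 0.32 (median 0.02, 24 pairs), against a median of -0.01 for other goats of the breed. Alternatives were other treatments of flagged spots, offset 16, median centring, the software's signals, the deposited ratios, Cy5 alone, other detection filters, array weights, goat or slide as a block, each breed alone, each goat left out, and 2 MFG arrays left out. Leaving out the 3 low-slope arrays was added after the data had been seen.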

Additional observations from a re-analysis of the deposited data

Results flagged for a closer look

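In PNCB of PWI goats, the GHR log2 ratio of goat 4 was -1.95, while the other 3 goats lay between -0.21 and 0.06. The gap took 0.868 of the range of the 4 arrays, which is past Dixon's limit for 4 values. This is 1 of 59 groups of 4 or more arrays examined over the 11 probes, where chance alone gives about 2.95. The array has a low spike-in slope (0.567), 21.1% of its spots carry an outlier flag, and net Cy3 at the GHR probe was 226. Their part in the value was not tested.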

How the results depend on the processing

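The ELF5 differences from PNCB passed the test with the same sign under all 24 alternatives, which says little where PNCB is at background. So did those of PRLR A_73_106127, and GHR (0.63 to 2.28) and STAT5A A_73_P250836 (0.91 to 2.27) in MFG under 25. No breed difference among the 11 probes passed under any. Goat as a fixed block changed no call of these probes but that of AKT1 in MSC against PNCB, where 7 passed in place of 6, and goat as a random block (correlation 0.027) changed no count of members called higher in the 3 comparisons of sources. Slide as a random block, in a fit of source means without breed, left the counts at 6, 8 and 4. Each group had its own slide, so this fit cannot separate slide from group.

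Requiring signal well above background on all 24 arrays kept 5 of the 11 probes, of which 2, 4 and 2 passed in MSC against PNCB, MFG against PNCB and MFG against MSC, and 8297 and 10496 of all probes in the first pair. Within PWI goats alone 2 passed in MFG against MSC, and all-probe counts in the 3 comparisons were 7729, 11468 and 3369. For MFG against MSC the all-probe count was 9534, and it was 18209 with median centring (7 of the 11 probes), 15892 with array weights, and 5532 and 4414 with flagged spots kept in the background fit or throughout. The cause was not tested.

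Signs turned as follows, some of them at differences that had passed. Under median centring the median of all probes was itself -0.82 in MFG against PNCB and -0.61 in MFG against MSC. In MFG against PNCB, STAT5A A_73_114121 stood at -0.10 (Cy5 alone), -0.26 (deposited), -0.46 (median centring), -0.0087 and -0.046 (flagged spots in the fit, throughout), -0.39 (software signals) and -0.042 (PWI), and over single goats left out at -0.029 to 0.22. STAT5B there stood at 0.17 (Cy5 alone), 0.21 (array weights), 0.018 (flagged spots in the fit), 0.0072 (software signals), 0.0071 (PFI), 0.18 (no low-slope arrays) and 0.18 (no MFG arrays of PWI goats 2 and 4), and over goats at -0.10 to 0.042. In MSC against PNCB, STAT5B stood at -0.077 (deposited) and -0.24 (median centring), STAT5A A_73_P250836 at -0.023 and -0.038 (flagged spots in the fit, throughout) and over goats at -0.042 to 0.17, and STAT5A A_73_P053856 at 0.034 (no low-slope arrays). In MFG against MSC, PRLR A_73_106127 stood at -0.14 and -0.087 (flagged spots in the fit, throughout), -0.18 (software signals) and -0.54 (median centring), and over goats at -0.11 to 0.33. AKT1 there stood at 0.52 (Cy5 alone) and 0.079 (PFI), and within PFI goats STAT5A A_73_P053856 at 0.091 and A_73_114121 at 0.033. SOCS2 with median centring was -0.31 against PNCB and -0.66 against MSC, ELF5 A_73_P347736 was -0.31 against MSC, and AKT1 in MFG against PNCB was 0.13 with Cy5 alone. Between breeds in MSC, ELF5 A_73_P034886 stood at -0.14 and -0.10 (flagged spots in the fit, throughout) and AKT1 at -0.040 (Cy5 alone).

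All-probe breed counts moved as follows. With array weights they were 26 in PNCB, 54 in MFG, 172 over the 3 sources and 62 for breed by source. In the fit of all 24 arrays they were 1 in MSC, 9 in PNCB and 42 in MFG. Without the low-slope arrays they were 6, 28 and 22 in PNCB, MFG and breed by source, and without the MFG arrays of PWI goats 2 and 4 they were 8 in MFG and 4 over the 3 sources. With flagged spots in the background fit they were 0, 0 and 1 in PNCB, MFG and breed by source, and with flagged spots throughout 0, 0 and 0. Software signals gave 8 in PNCB, 8 over the 3 sources and 8 for breed by source, and accession means gave 1, 6, 3 and 5 in PNCB, MFG, over the 3 sources and for breed by source. Cy5 alone gave 1 in MFG and 6 for breed by source, median centring 2 in MFG and 3 over the 3 sources, and detection on all arrays 1 and 2. Over the 3 sources the deposited ratios gave 7, offset 16 gave 8 and goat as a random block 15. Leaving out single goats gave 1 to 28 in MFG (28 without PWI goat 2), 1 to 6 over the 3 sources and 2 to 6 for breed by source. The low-slope setting was not run for MSC or over the 3 sources. Signal near background limits what the PNCB arrays show of ELF5 and PRLR.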
